A study of Rattus norvegicus with 8 samples.

Results

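The 10 genes described here encode orphan nuclear receptors of steroid-producing cells: Nr5a1, Nr5a2, Nr0b1, Nr0b2, Nr4a1, Nr4a2, Nr4a3, Nr2f1, Nr2f2 and Nr6a1. They were chosen by name, as every non-control probe of a rat expression array that carries one of these gene names, which gave 13 probes for the 10 genes among 26204 gene names on the array. Of the 13 probes, 12 from 9 genes passed the filter on low signal and were tested.

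The arrays measured RNA of whole ovaries of immature female rats, in 8 samples, 4 per label. The animals labelled PMSG received 50 IU of pregnant mare serum gonadotropin, a preparation that acts on the receptors for follicle-stimulating and luteinising hormone, and those labelled control received only its carrier, a phosphate buffer with albumin. Both were given as 0.2 ml under the skin at 26 days of age, and ovaries were collected 48 h afterwards, at 28 days. The labels' protocol counts that time from a first injection and describes no later one. The labels name no strain and do not say whether an array holds 1 animal or pooled animals, so p-values measure the spread between these arrays, which may be technical.

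Nuclear receptors are transcription factors that bind short DNA sites, and those called orphans were named before any hormone was known to bind them. NR5A1 (steroidogenic factor 1) and NR5A2 (liver receptor homolog 1) bind the same kind of site as single molecules and switch on genes of cholesterol uptake and steroid synthesis. In the ovary NR5A1 is known from theca and granulosa cells and NR5A2 from granulosa and luteal cells. NR0B1 (DAX1) and NR0B2 (SHP) lack the usual DNA-binding domain and repress other receptors, the NR5A pair among them. The NR4A receptors are immediate early genes that gonadotropin and cAMP induce within a short time, and the NR2F (COUP-TF) receptors are found in stromal and theca cells and often oppose NR5A receptors at shared sites.

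Directions below follow the array labels, and every difference is the mean of arrays labelled PMSG minus the mean of arrays labelled control. Genes that gonadotropin is generally known to raise were among those lower in arrays labelled PMSG, so groups are named by label throughout. Whether the labels are exchanged was not tested. If they were, every direction below would turn while sizes and p-values stayed as they are. Among 6 luteal cell markers, Star, Lhcgr, Prlr and Runx2 were above background on all 8 arrays and were lower in arrays labelled PMSG. For Runx2 this is its brightest probe, which differed by -5.33 on the log2 scale. Its other probes gave -0.36 (limma adjusted p = 0.38) and -0.66 (limma adjusted p = 0.0634), so the Runx2 fall rests on that probe. Ptgfr, above background on no PMSG-labelled array, was at least 3.14-fold lower, and Akr1c18, above it on 1 of them, at least 247-fold lower, with the dim arrays set no lower than their lowest signal above background; AKR1C genes are near-identical copies, so that assignment is uncertain. The summed level of the 6, in multiples of each array's 75th percentile signal, was 35.3 to 42.6 on arrays labelled control and 2.33 to 14.5 on arrays labelled PMSG. Signal was summed without logs, so Star, the brightest of the 6, makes up most of it. On the log2 scale Star read 3.81 on PMSG-labelled array 2 and 0.99 to 1.92 on the other PMSG-labelled arrays. The 75th percentile of signal was 769 to 1103, and 80.8% to 84.6% of probes were well above background on each array. The mean correlation across probes was higher with arrays of the same label than across labels for each of the 8 arrays.

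The NR5A pair is shown first by sequence, because the probes show how far the array can tell these 2 related transcripts apart. Both probes below come from the array files, read in the sense direction and end at a stop codon, so they cover the last codons of each receptor. Capitals mark the bases at which the 2 probes differ when set side by side without gaps.
Nr5a1: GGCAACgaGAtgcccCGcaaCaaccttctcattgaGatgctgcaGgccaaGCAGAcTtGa
Nr5a2: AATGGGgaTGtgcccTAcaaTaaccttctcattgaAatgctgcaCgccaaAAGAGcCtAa
They share 40 of 60 bases (66.7%), and the longest run of identical bases is 14. On the build rn4, the Nr5a1 probe lies at chr3:18499562-18499621 on the minus strand and this Nr5a2 probe at chr13:49931750-49931809 on the minus strand. Whether the 2 transcripts cross-hybridise was not tested.

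Values are log2 signal minus the array's 75th percentile on the log2 scale, so a value of 0 equals that percentile. Levels are compared only within a probe, since probes differ in how brightly they report a transcript. Of the 9 receptor genes tested, 4 differed at an adjusted p under 0.05 (limma, Benjamini-Hochberg adjusted across the 25303 probes tested), 2 higher and 2 lower in arrays labelled PMSG. Over all tested probes, 34.2% passed the same threshold, 17.6% higher and 16.6% lower. The groups did not overlap for the same 4 genes, and for 36.6% of all tested probes. The count of receptors that changed is close to this background share and is not read as a result by itself. With arrays centred on the median instead, the share of higher among all called probes was 34.5% in place of 51.4%, and these 4 receptors kept their directions. The median difference was -0.07 over the 9 genes and 0.11 over all tested probes.

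**Figure D1:**
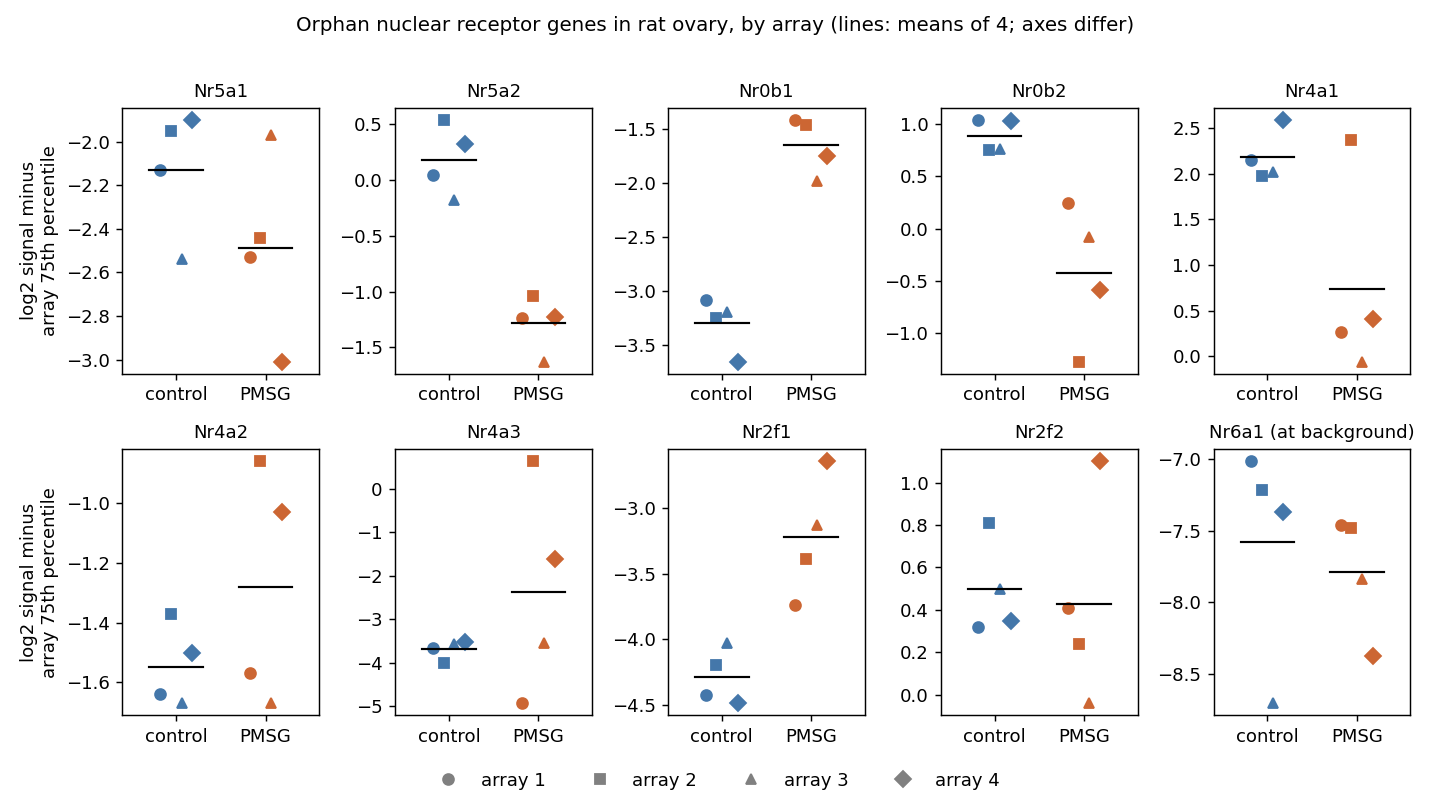
Log2 signal minus the array's 75th percentile (y axis, a separate scale for each gene) for each of the 10 receptor genes, with 4 arrays per label as points and the group mean as a line; the brightest probe of each gene is plotted, and Nr6a1 was not well above background on any array. The groups stand apart for Nr5a2, Nr0b1, Nr0b2 and Nr2f1, and PMSG-labelled array 2 (square) stands among the control-labelled arrays for Nr4a1.

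Nr5a2 was lower in arrays labelled PMSG and Nr5a1 did not pass the test. The brightest Nr5a2 probe (chr13:49931605-49931664, minus strand) read 0.05, 0.54, -0.18 and 0.32 on control-labelled arrays 1 to 4 and -1.24, -1.04, -1.63 and -1.23 on PMSG-labelled arrays 1 to 4. The groups did not overlap, with a gap of 0.86 between the lowest control-labelled and the highest PMSG-labelled array. The control-labelled mean was 0.18 ± 0.31 and the PMSG-labelled mean -1.28 ± 0.25 (SD, n = 4 each). The difference of -1.47 (SE 0.19, limma adjusted p = 0.00077) is 2.77-fold. The second probe, the one printed above, gave -1.46 (SE 0.16, limma adjusted p = 0.000444), so both Nr5a2 probes report nearly the same size.

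Nr5a1, measured by a single probe, read -2.13, -1.95, -2.54 and -1.90 on arrays labelled control and -2.53, -2.44, -1.97 and -3.01 on arrays labelled PMSG. The groups overlap: PMSG-labelled arrays 1, 2 and 3 lay within the range of the control-labelled arrays, while PMSG-labelled array 4 was the lowest of the 8. The difference was -0.36 (SE 0.23, limma adjusted p = 0.26), and it ran from -0.53 without PMSG-labelled array 3 to -0.19 without PMSG-labelled array 4. The unequal change of the 2 receptors was tested within arrays, as the log2 ratio of the Nr5a2 to the Nr5a1 probe. That ratio changed by -1.11 on the log2 scale from arrays labelled control to arrays labelled PMSG (exact two-sided permutation test, p = 0.0286, the smallest that 4 arrays against 4 allow; 0.0343 adjusted over 6 ratios).

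The 2 receptors that act as repressors moved in opposite directions. Nr0b1 (chrX:73010187-73010246, plus strand) read -3.08, -3.25, -3.19 and -3.65 on arrays labelled control and -1.42, -1.47, -1.98 and -1.75 on arrays labelled PMSG. All 4 PMSG-labelled arrays were above all control-labelled ones, by a gap of 1.09. The group means were -3.29 ± 0.25 and -1.65 ± 0.26 (SD, n = 4 each). The difference of 1.64 (SE 0.17, limma adjusted p = 0.000363) is 3.11-fold, the largest rise among the receptor genes that passed the test. Relative to Nr5a1 on the same array, the receptor it is best known to repress, Nr0b1 was 1.99 higher on the log2 scale in arrays labelled PMSG (exact two-sided permutation test, p = 0.0286, adjusted 0.0343).

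Nr0b2 (chr5:151524722-151524781, minus strand) read 1.04, 0.75, 0.76 and 1.03 on arrays labelled control and 0.25, -1.27, -0.08 and -0.58 on arrays labelled PMSG. The control-labelled arrays lay close together and the PMSG-labelled arrays were spread out below them, with array 2 the lowest. The group means were 0.89 ± 0.16 and -0.42 ± 0.66 (SD, n = 4 each). The difference of -1.31 (SE 0.30, limma adjusted p = 0.0112) is 2.48-fold. Its ratio to Nr5a2 within arrays changed by 0.16 (exact two-sided permutation test, p = 0.686), with a range of 0.21 to 0.99 on arrays labelled control and -0.23 to 1.55 on arrays labelled PMSG.

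Nr0b2 is also a gene through which the bile acid receptor acts in liver, and 4 of 8 listed targets of that receptor could be tested. Fabp6, an intracellular bile acid carrier, fell by 6.87 on the log2 scale (SE 0.42, limma adjusted p = 5.09e-05) and Slc51a, a subunit of the bile acid exporter, fell by 4.05 (SE 0.23, limma adjusted p = 3.81e-05). The other 2 did not pass the test, with Slc51b at 0.14 (limma adjusted p = 0.573) and Cyp8b1 at 0.54 (limma adjusted p = 0.136). The 2 that fell are 50% of those tested, beside 16.6% of all tested probes called lower and 34.2% called in either direction. The gene Nr1h4, which encodes the bile acid receptor itself, differed by -0.10 (limma adjusted p = 0.777).

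**Figure D2:**
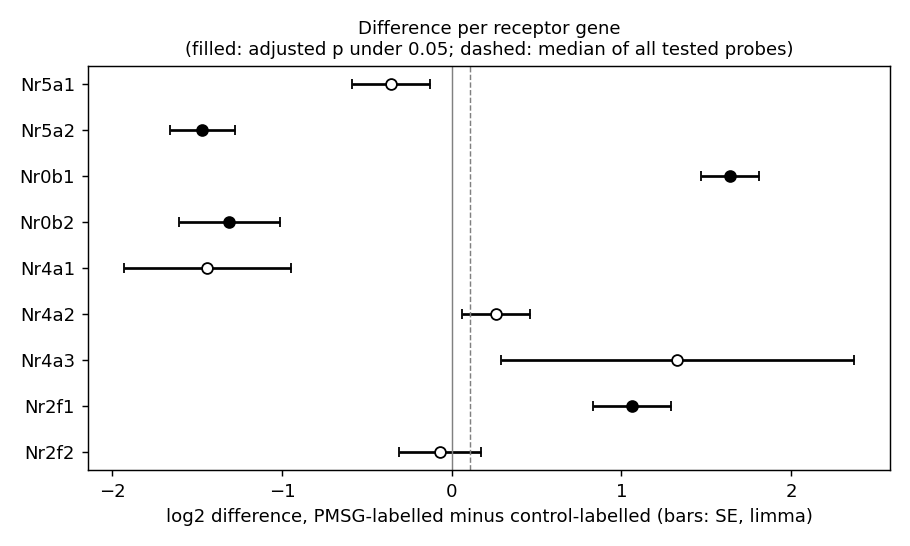
Log2 difference of arrays labelled PMSG minus arrays labelled control (x axis) for the 9 receptor genes tested, 4 arrays per label, brightest probe per gene, with standard errors from limma as bars. Filled points passed an adjusted p of 0.05, and the dashed line is the median over all tested probes, 0.11; Nr5a2 and Nr0b2 lie left of it, Nr0b1 and Nr2f1 right of it, and Nr4a1 and Nr4a3 have the longest bars.

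Among the NR4A receptors no gene passed the test over 4 arrays per label. Whether Nr4a1 passed depended on PMSG-labelled array 2 and also on the processing. Nr4a1 (Nur77; chr7:140020442-140020501, plus strand, 10 spots per array) read 2.15, 1.97, 2.02 and 2.59 on arrays labelled control. On arrays labelled PMSG it read 0.27, 2.37, -0.06 and 0.41, so 3 arrays lay well below the controls and array 2 lay among them. The difference was -1.44 (SE 0.49, limma adjusted p = 0.0536). Without PMSG-labelled array 2 it was -1.98 (SE 0.19, limma adjusted p = 0.000887).

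Nr4a2 (Nurr1; chr3:38866834-38866893, minus strand) read -1.64, -1.37, -1.67 and -1.50 on arrays labelled control and -1.57, -0.86, -1.67 and -1.03 on arrays labelled PMSG. The groups overlap, and arrays 2 and 4 were the highest of the 8. The difference was 0.26 (SE 0.20, limma adjusted p = 0.32), and it ran from 0.12 without PMSG-labelled array 2 to 0.39 without PMSG-labelled array 3. The other Nr4a2 probe (chr3:38867352-38867411) gave 0.13 (SE 0.12, limma adjusted p = 0.42).

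Nr4a3 (Nor1) has 2 probes that disagree about single arrays. The brighter one (chr5:64753210-64753269, plus strand) read -3.67, -4.01, -3.57 and -3.52 on arrays labelled control and -4.93, 0.63, -3.55 and -1.62 on arrays labelled PMSG. One array was thus far above all others and another below all of them, and the difference was 1.33 (SE 1.04, limma adjusted p = 0.346). Without PMSG-labelled array 2 it was 0.33 (SE 0.69, limma adjusted p = 0.737), and without PMSG-labelled array 1 it was 2.18 (limma adjusted p = 0.101). The other probe (chr5:64727357-64727416) read -4.75, -5.98, -5.59 and -6.15 on arrays labelled control and -3.93, -4.39, -4.09 and -5.46 on arrays labelled PMSG, with array 2 in the middle of its group. Its difference was 1.15 (SE 0.41, limma adjusted p = 0.0586). The 2 probes carry different transcript records in the array files, and which transcripts each reports was not tested.

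Although no NR4A gene passed alone, they changed unequally within arrays. The ratio of Nr4a2 to Nr4a1 was 1.70 higher on the log2 scale in arrays labelled PMSG, running from -4.10 to -3.34 on arrays labelled control and from -3.23 to -1.43 on arrays labelled PMSG. The ratio of the brighter Nr4a3 probe to Nr4a1 was 2.77 higher, from -6.11 to -5.59 against -5.20 to -1.73. Both ratios had an exact two-sided permutation p of 0.0286 (adjusted 0.0343), and in both no PMSG-labelled array overlapped the controls, array 2 included. The level of such a ratio depends on the probes, and only its change is read.

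By the brightest probes, PMSG-labelled array 2 was the highest of its 4 arrays for 3 of 3 NR4A genes. The same held for 11 of 20 other genes listed as immediate early, against 17.5% of all tested probes. On the other Nr4a3 probe array 2 was not the highest, at -4.39 against -3.93 on PMSG-labelled array 1. Egr4, a zinc finger factor, read -0.47 on that array and -6.41 to -5.12 on the other PMSG-labelled arrays. Crem, a cAMP-responsive factor, read 2.61 against 0.63 to 1.37, and Sik1, a kinase that cAMP induces, read 3.03 against 1.44 to 1.95. Star, the mitochondrial cholesterol carrier, read 3.81 on array 2 against 0.99 to 1.92 on the others. These 4 genes were chosen after their values were seen. The cause of this array's difference was not tested.

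Across the 20 genes listed as immediate early, 7 fell in arrays labelled PMSG, none rose and the median difference was -0.15. The 7 include Creb1 (-0.40, limma adjusted p = 0.0151), which is not usually counted as an immediate early gene. Egr2 fell by 2.98 (SE 0.22, limma adjusted p = 8.74e-05), Dusp1, a MAP kinase phosphatase, by 1.86 (SE 0.21, adjusted p = 0.00044) and Junb, an AP-1 subunit, by 1.40 (SE 0.25, adjusted p = 0.00336). The 7 are 35% of those tested, beside 16.6% of all tested probes called lower and 34.2% called in either direction.

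**Figure D3:**
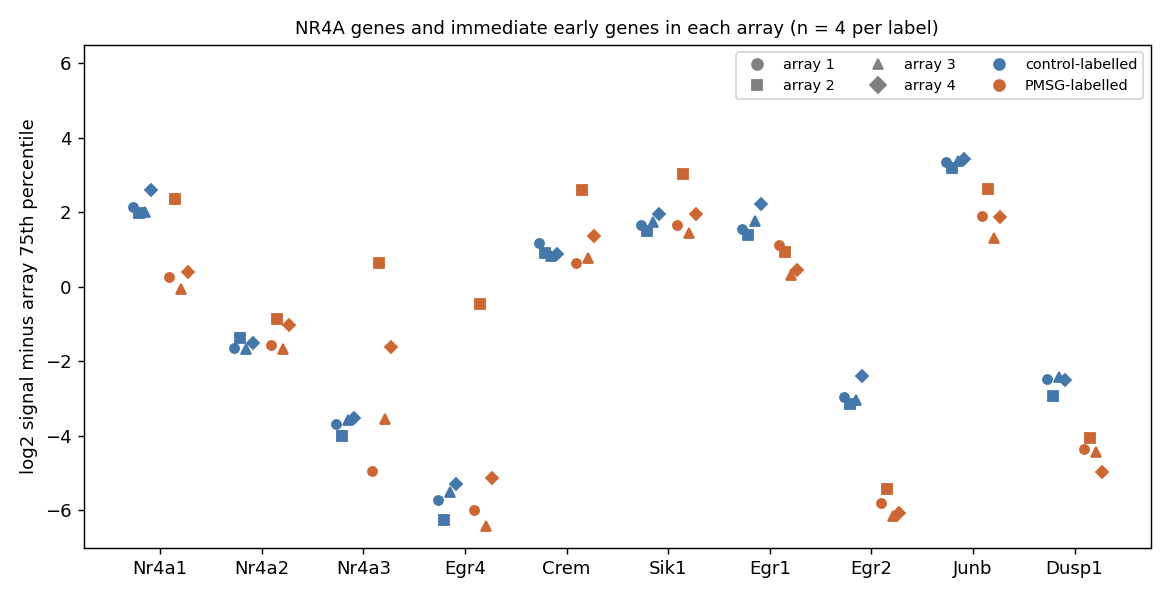
Log2 signal minus the array's 75th percentile (y axis) for the 3 NR4A genes and 7 immediate early genes (x axis), with 1 point per array and 4 arrays per label; marker shapes give the array number. By the brightest probe of each gene, PMSG-labelled array 2 (orange square) is the highest PMSG-labelled point for every gene shown except Egr1. Egr2, Junb and Dusp1 are lower on every PMSG-labelled array than on the control-labelled ones, array 2 included.

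The COUP-TF receptors differed from each other. Nr2f1 (COUP-TFI; chr2:5766132-5766191, minus strand) read -4.43, -4.20, -4.03 and -4.49 on arrays labelled control and -3.74, -3.39, -3.13 and -2.64 on arrays labelled PMSG. Every PMSG-labelled array was above every control-labelled one, though the gap of 0.30 was the narrowest among the 4 receptors that passed. The group means were -4.29 ± 0.21 and -3.22 ± 0.46 (SD, n = 4 each). The difference of 1.06 (SE 0.23, limma adjusted p = 0.00883) is 2.09-fold. Its signal was low, 48.5 to 174 units before scaling, and after quantile normalization the difference was 0.82 (SE 0.28, limma adjusted p = 0.0501), above the threshold of 0.05. The size ran from 0.67 with normexp background correction to 1.40 with outlier spots kept or in the authors' log2 values, and it passed in all 3.

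Nr2f2 (COUP-TFII; chr1:125280995-125281054, minus strand) read 0.32, 0.81, 0.50 and 0.35 on arrays labelled control and 0.41, 0.24, -0.04 and 1.1 on arrays labelled PMSG. The groups overlap, and PMSG-labelled arrays hold both the lowest and the highest value. The difference was -0.07 (SE 0.24, limma adjusted p = 0.846), and its sign turned without control-labelled array 2 (0.04) or PMSG-labelled array 3 (0.09). The ratio of Nr2f1 to Nr2f2 within arrays was 1.13 higher in arrays labelled PMSG (exact two-sided permutation test, p = 0.0286, adjusted 0.0343).

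Nr6a1 (germ cell nuclear factor), known from oocytes and early germ cells, was not well above background on any of the 8 arrays and was not tested. Its probe (chr3:18532811-18532868, minus strand) is a neighbour of Nr5a1 on chromosome 3 and gave signals of 2.4 to 8.02 units before scaling, where an array's 75th percentile lay at 769 or more. The oocyte itself was represented in the RNA: all 14 oocyte markers listed were tested, and 13 were higher in arrays labelled PMSG, beside 17.6% of all tested probes, with a median difference of 1.92 and summed levels of 4.97 to 7.63 on arrays labelled control and 14.9 to 29.2 on arrays labelled PMSG. No level of Nr6a1 can be set against them from this probe.

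All 5 within-array ratios that passed lost their call after quantile normalization (adjusted p of 0.0571 to 0.0686) and without each control-labelled array in turn (adjusted p of 0.0686). Their sizes stayed between 0.82 and 3.46 in absolute log2 units over the 8 fits that leave out an array. Within slide rows 1 and 2, which held 2 arrays of each label each, Nr5a2 differed by -1.77 and -1.17, Nr0b1 by 1.72 and 1.55, Nr0b2 by -1.56 and -1.06 and Nr2f1 by 1.08 and 1.04.

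Known targets of the NR5A receptors were described beside them, from a list of 20 genes of which 19 were tested and Cyp19a1 was not analysed here. Of the 19, 12 (63.2%) differed, 3 higher and 9 lower in arrays labelled PMSG, with a median of -0.43. Beside them, 34.2% of all tested probes differed, 17.6% higher and 16.6% lower, with a median of 0.11. The genes that fell included those of cholesterol delivery and side-chain cleavage. Those that rose, Amh, Amhr2 and Insl3, are a granulosa cell hormone, its receptor and a theca cell hormone.

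Cyp11a1, the enzyme that cleaves the cholesterol side chain, was 6.51 to 6.74 on arrays labelled control and 2.42 to 4.13 on arrays labelled PMSG, a difference of -3.36 (SE 0.31, limma adjusted p = 0.000232). Star fell by 2.75 (SE 0.54, adjusted p = 0.00541), and its other probe by 2.05. Scarb1, the HDL receptor that brings cholesterol into the cell, fell by 1.83 (SE 0.13, adjusted p = 7.51e-05), and its other probe by 3.02. The electron carriers of side-chain cleavage also fell, Fdx1 by 1.19 (SE 0.25, adjusted p = 0.00713) and Fdxr by 0.79 (SE 0.13, adjusted p = 0.0026).

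Mrap, an accessory protein of the corticotropin receptor, read 5.14 to 5.44 on arrays labelled control and 1.2 to 2.37 on arrays labelled PMSG, the largest fall in the list at -3.42 (SE 0.23, limma adjusted p = 6.66e-05). Mc2r, the receptor it serves, read near the bottom of the range in both groups and differed by -0.43 (adjusted p = 0.371). The prolactin receptor gene Prlr fell by 2.15 (SE 0.24, adjusted p = 0.000435) and the luteinising hormone receptor gene Lhcgr by 1.93 (SE 0.27, adjusted p = 0.00114). The probe named Hsd3b6 in the array files, whose transcript record RefSeq calls Hsd3b2, fell by 1.69 (SE 0.16, adjusted p = 0.000256), and since HSD3B genes are near-identical copies the assignment is uncertain.

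Amh rose the most, from -1.10 to -0.59 on arrays labelled control to 1.41 to 2.89 on arrays labelled PMSG, a difference of 3.03 (SE 0.29, limma adjusted p = 0.000261). Its receptor gene Amhr2 rose by 1.71 (SE 0.22, adjusted p = 0.000817). Insl3 rose by 2.60 (SE 0.27, adjusted p = 0.000347). The other 7 did not pass: Cyp17a1 of androgen synthesis differed by -0.22, Hsd3b1 by 0.07, the inhibin subunit Inha by -0.39, the follicle-stimulating hormone receptor gene Fshr by 0.34, the aldose reductase relative Akr1b7 by -0.28, Mc2r by -0.43 and the oxytocin gene Oxt by -0.13. Inha passed after quantile normalization (-0.50, limma adjusted p = 0.043), after median centring (-0.56, 0.0318) and without control-labelled array 3 (-0.53, 0.0244). Hsd3b1 changed sign with the scaling, at -0.14 after quantile normalization and -0.10 after median centring.

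**Figure D4:**
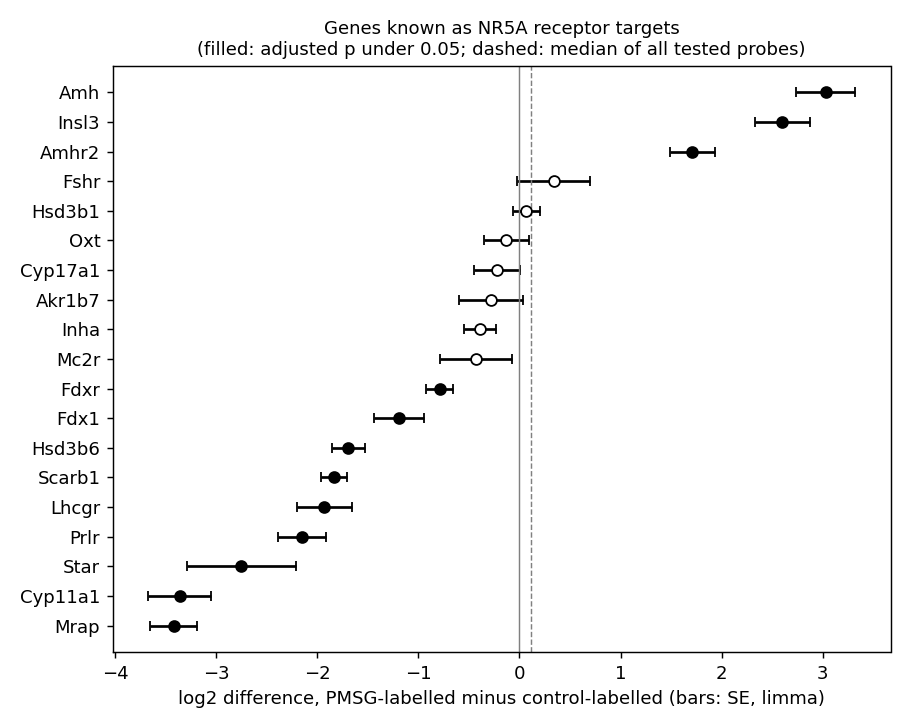
Log2 difference of arrays labelled PMSG minus arrays labelled control (x axis) for the 19 tested genes known as NR5A targets, 4 arrays per label, with standard errors from limma as bars. Filled points passed an adjusted p of 0.05, and the dashed line is the median over all tested probes, 0.11; Mrap, Cyp11a1 and Star lie furthest left and Amh furthest right.

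Several of these targets are also markers of single ovarian cell types: Star, Lhcgr and Prlr of luteal cells, Amh, Inha and Fshr of granulosa cells, and Insl3 and Cyp17a1 of theca cells. In whole ovary, fewer cells of a type and less RNA per cell cannot be told apart. The marker counts that follow stand beside 34.2% of all tested probes called, 17.6% higher and 16.6% lower. Lists near those shares are not read as results. Summed levels are again of signal without logs, so the brightest genes of a list weigh most. Some of these did not pass: Cyp17a1 (-0.22) of the theca list and Hbb (-0.13) of the red blood cell list. Nor did Col1a1 (0.06) and Col1a2 (0.14), the brightest of the stromal fibroblast list. Such sums do not describe a list as a whole. Beside the luteal markers above, 2 of 7 granulosa cell markers passed, Amh higher and Inhbb lower, with summed levels of 116 to 186 on arrays labelled control and 111 to 143 on arrays labelled PMSG. All 3 theca cell markers that passed, of 4 tested, were higher, with summed levels of 31.3 to 40.3 and 23.7 to 48.5. Of the oviduct and surface epithelium markers 4 of 6 were higher (14.3 to 19 against 24.8 to 35.4), of the leukocyte markers 4 of 5 (6.98 to 8.71 against 11.1 to 12.5) and of the stromal fibroblast markers 3 of 6 (123 to 140 against 139 to 160). Of the endothelial markers 3 of 6 were lower (19.2 to 22.7 against 15.1 to 16.9), and none of 5 smooth muscle markers passed (33.3 to 57.9 against 34 to 60.8). Among markers of tissue that can adhere to the ovary, 1 of 5 adipocyte markers was higher (6.28 to 47.1 against 19.5 to 53.3), and 1 of 3 adrenal cortex and 1 of 4 red blood cell markers were lower (0.165 to 0.232 against 0.127 to 0.352, and 70.3 to 96.8 against 55.6 to 90.5). The median difference of the red blood cell markers was -1.1, and a second Hbb probe, not counted above, gave -0.97 (limma adjusted p = 0.0302). The part of these cell types in the receptor differences was not tested.

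Of 21 coregulators and partners of these receptors 6 (28.6%) rose and none fell, beside 17.6% of all tested probes higher and 16.6% lower. The 28.6% is below the 34.2% of all tested probes called in either direction. Among the 6, the largest differences were those of Rxrb (0.75, limma adjusted p = 0.00134), Rxra (0.62, adjusted p = 0.0185) and the coactivator Ncoa1 (0.55, adjusted p = 0.00709). Rxra and Rxrb are retinoid X receptor genes. The third such gene, Rxrg, differed by 1.14 (limma adjusted p = 0.132) and Crebbp by 0.66 (limma adjusted p = 0.0916), and neither passed. Of 15 other orphan nuclear receptors tested, 4 (26.7%) passed in either direction, below the 34.2% of all tested probes. Rora, a clock-linked receptor, fell by 2.41 (adjusted p = 0.000193), Esrra, an estrogen-related receptor of mitochondrial genes, fell by 0.72 (adjusted p = 0.000734), and the clock repressor gene Nr1d2 rose by 0.85 (adjusted p = 0.0206).

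Known receptor sites were searched in promoters, from RefSeq sequence of the assembly GRCr8, on both strands. The window searched held the 250 bases before each gene's start and a shorter stretch from the start on. Only the 250 bases before the start are printed below. Of the 10 receptor genes 8 had an entry, and of the 20 NR5A targets 15. The NR5A site was searched as CAAGGTCA, found in 1.52% of all promoters, and as CAAGGCCA, found in 2.19%. Of the 8 receptor genes 1 held either, Nr0b2, and of the 15 targets 2, Amh and Oxt, beside 3.68% of all promoters. The promoters of Nr0b2, which fell, and Amh, which rose, are shown because they hold the site in the orientation of the gene, with the site in capitals.
Nr0b2: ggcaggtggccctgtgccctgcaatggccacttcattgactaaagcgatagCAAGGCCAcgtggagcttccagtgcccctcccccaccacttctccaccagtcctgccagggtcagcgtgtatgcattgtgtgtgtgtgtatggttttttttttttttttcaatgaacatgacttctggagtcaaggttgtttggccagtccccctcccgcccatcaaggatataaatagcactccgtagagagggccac
Amh: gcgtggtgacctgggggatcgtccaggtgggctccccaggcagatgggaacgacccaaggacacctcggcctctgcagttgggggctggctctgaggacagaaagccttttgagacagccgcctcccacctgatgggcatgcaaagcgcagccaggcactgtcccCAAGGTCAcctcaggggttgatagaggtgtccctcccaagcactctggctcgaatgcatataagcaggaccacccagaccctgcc
The Nr0b2 stretch is chr5:151062910-151063159 on the plus strand and the Amh stretch chr7:9559868-9560117 on the minus strand. The Nr0b2 site starts 199 bases and the Amh site 85 bases before the gene's start. The NR4A monomer site AAAGGTCA, in 1.43% of all promoters, was found in Akr1b7 alone of the 2 sets, and the cAMP response element TGACGTCA, in 1.83%, in Nr6a1 alone. Direct repeats of AGGTCA, with 1 base between them or none, were found in 0 of the 2 sets, and in 0.0538% and 0.012% of all promoters. The repeat with no base between contains CAAGGTCA. A match describes the letters of these windows only.

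Over the 8 arrays, the non-member genes whose levels ran closest to Nr0b1, which rose the most, were Ccpg1 (Pearson's r = 0.995), Pik3ip1 (0.994) and Ptprd (0.994). For Nr5a2, which fell the most, they were Ctbp2 (0.991), Brd8 (0.99) and Ewsr1 (0.988). These were the highest of 12553 genes, over points that share the 2 labels with 4 arrays each. Ccpg1 differed by 1.11, Pik3ip1 by 2.76 and Ptprd by 1.53, and Ctbp2, Brd8 and Ewsr1 by -0.57, -0.61 and -0.59, smaller in size than the -1.47 of Nr5a2.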

How the data were processed

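The authors deposited 1-colour scanner files with the intensity of each spot, made with Agilent Feature Extraction 11.5.1.1, per the file headers. They also deposited a table of log2 values, which in 8 of 8 columns matched the 75th-percentile scaling used here and served as an alternative; the number of columns left unused was 0. Groups were taken from the sample titles. Control and outlier spots were left out, spots of a probe were averaged, and the 75th percentile of log2 processed signal was subtracted within each array. A probe was tested where it was well above background on at least 4 of the 8 arrays, which left 25303 of 30350 probes, and 4 arrays per label limit the precision. No spot was saturated. Labels were contrasted in R 4.3.3 using limma 3.58.1 (lmFit, eBayes, no covariates), adjusted over all tested probes at a threshold of 0.05. Ratios between receptor probes were compared by exact permutation. The procedure was tested on simulated data. All arrays shared 1 slide and 1 scan date, so slide row was examined as position. Same-numbered arrays were not paired. A gene is given by its brightest probe. Receptors and lists (NR5A targets, coregulators, immediate early genes, other orphan receptors, bile acid receptor targets and 12 cell type marker lists) were chosen with earlier results of these data known, and no list supports a direction independently. Named were all receptors, all NR5A targets, up to 3 called genes with the largest difference in the other lists, and the 3 genes most like Nr0b1 and Nr5a2. Cell type lists other than luteal are given mainly by counts. Egr1, Egr4, Crem, Sik1, Creb1, Nr1h4, Slc51b, Cyp8b1, Rxrg, Crebbp, Inhbb, Col1a1, Col1a2 and Hbb fall outside this rule. They were named after their values were seen. Cyp19a1, Nr2e3 and Hhip were not analysed here, and 4 listed genes were reached through RefSeq accessions. Probe coordinates are on rn4, per the file headers.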

Additional observations from a re-analysis of the deposited data

Results flagged for a closer look

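Among 64 groups of 4 arrays examined (the receptor probes and the NR5A targets under each label), 4 had 1 array set apart from the other 3 by more than Dixon's 95% critical value, where chance gives about 3.2. None of the 4 was a receptor probe. PMSG-labelled array 4 was the low one for Hsd3b1 (6.69 against 7.12 to 7.18, gap over range 0.868), for Fdxr (4.72 against 5.18 to 5.22, 0.911) and for Insl3 (2.49 against 3.50 to 3.59, 0.921). Control-labelled array 1 was the low one for Mc2r (-6.28 against -5.63 to -5.53, 0.869), whose signal is close to background.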

How the results depend on the processing

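Nr5a2, Nr0b1, Nr0b2 and Nr2f1 kept their directions under all 21 alternatives, and Nr5a1 stayed above the threshold in each. After quantile normalization Nr2f1 gave 0.82 (limma adjusted p = 0.0501), Hsd3b1 turned to -0.14, and the log2 ratios Nr5a2/Nr5a1, Nr0b1/Nr5a1, Nr4a2/Nr4a1, Nr4a3/Nr4a1 and Nr2f1/Nr2f2 gave -1.05, 1.95, 1.61, 2.46 and 0.87 without passing; the cause was not tested. Nr4a1 passed after median centring (-1.61, adjusted p = 0.0389), with normexp background correction (-1.40, 0.0303), with probes above background on all 8 arrays (-1.44, 0.0459) and with array weights (-1.37, 0.0401). Hsd3b1 gave -0.10 after median centring and Mc2r 0.02 with normexp.

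Within slide row 1, with 2 arrays per label, 3351 probes, 3 receptors and 9 targets passed: Star (-2.19, adjusted p = 0.136), Fdx1 (-0.74, 0.0561) and Fdxr (-0.63, 0.0627) did not, Nr0b2 gave -1.56 (adjusted p = 0.081), Nr2f1/Nr2f2 1.56, Cyp17a1 0.04, Fshr -0.19, Akr1b7 0.08 and Oxt 0.01. Within slide row 2, limma called 0 probes (6015 at an unadjusted p under 0.05), 0 receptors (4 unadjusted) and 0 targets (12 unadjusted): Nr5a2 gave -1.17 (adjusted p = 0.076), Nr0b1 1.55 (0.0744), Nr0b2 -1.06 (0.191), Nr2f1 1.04 (0.276), Nr2f2 0.35, Hsd3b1 -0.10 and Nr2f1/Nr2f2 0.70. Both use fewer arrays.

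Leaving out 1 array at a time gave 6552 to 11382 probes, the highest without PMSG-labelled array 4, 4 to 5 receptors and 12 to 13 targets. Nr4a1 ranged from -1.98 to -1.17, Nr4a3 from 0.33 to 2.18, Nr2f2 from -0.29 to 0.09, Nr5a2/Nr5a1 from -1.30 to -0.82, Nr0b1/Nr5a1 from 1.80 to 2.28, Nr0b2/Nr5a2 from -0.07 to 0.52, Nr4a2/Nr4a1 from 1.5 to 2.10, Nr4a3/Nr4a1 from 2.31 to 3.46 and Nr2f1/Nr2f2 from 0.94 to 1.29. Fshr ranged from -0.02 (without control-labelled array 3) to 0.56, and Cyp17a1 from -0.34 to 0.01, Akr1b7 from -0.49 to 0.03 and Oxt from -0.28 to 0.04, each turning sign without PMSG-labelled array 4.

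Replicate numbers did not pair arrays: the deviations of same-numbered arrays correlated at 0.0444, 0.0361, 0.183 and -0.0192. With the replicate number as a block, 7346 probes, 4 receptors and 12 targets passed. Low signal limits Nr6a1, which was at background on all 8 arrays.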
